A study of Homo sapiens with 28 samples.

Results

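The open regions of chromosome 7 were taken from ATAC-seq peak lists of AN3CA cells, a long-used human line that came from an endometrial carcinoma. ATAC-seq marks accessible DNA by the sites where a transposase can cut and insert adapters. All peaks on chromosome 7 in the 28 deposited lists were used, 74562 of 1247388 peaks in all. Each list was then cut to the length of the shortest, keeping the peaks of highest -log10 p-value on the autosomes and X, and overlapping peaks of these equal-length lists were merged. Merged regions found in 2 or more lists were kept, which left 1998 regions on chromosome 7 of 32972 in all. Peaks of the lists chose these regions, so their number and widths are a description. At the border of that choice, the 335 merged regions of chromosome 7 found in exactly 1 list (median width 403 bp) were left out and the 184 found in exactly 2 lists (median width 556.5 bp) were kept.

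The libraries fall into 13 groups by what the cells were given, either a vector with no insert or 1 version of ARID1A or ARID1B. There are 4 libraries of Empty_vector and 2 of each further group. The unaltered proteins are ARID1A_WT and ARID1B_WT, whose 4 libraries are called wild type below. Of the altered forms, 6 belong to ARID1A: ARID1A_CBR and ARID1A_delIDR1 (both truncations per the labels), ARID1A_DBDmut (a mutated ARID domain), ARID1A_DDX4 (a hybrid with the disordered region of another protein), ARID1A_Y42S and ARID1A_AQGscramC1C2. The other 4 belong to ARID1B: ARID1B_S320_G327del, ARID1B_A457_G461del, ARID1B_Block13del and ARID1B_Block9del. For 10 libraries the genotype label reads as the empty vector control although the title names a construct. They are those of ARID1B_Block9del, ARID1B_Block13del, ARID1B_A457_G461del, ARID1A_Y42S and ARID1A_AQGscramC1C2. They were grouped by title, and the names of their peaks carry the same construct as the title. No other treatment, time or clone is given in the labels used here, and the labels do not say whether replicates were separate cultures. The p-values therefore measure the spread between these libraries, which may be technical.

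A date code in the peak names divides the libraries into 6 runs, called A to F. Runs A and B each hold 1 library of Empty_vector, ARID1A_CBR, ARID1A_WT, ARID1A_delIDR1 and ARID1A_DBDmut. In run C are Empty_vector 3 and 4 with ARID1B_WT and ARID1B_S320_G327del. ARID1A_DDX4 makes up run D, ARID1A_AQGscramC1C2 run F, and the other constructs run E. Runs D, E and F have no Empty_vector library, so for their constructs run and construct cannot be told apart in a comparison with Empty_vector.

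ARID1A and ARID1B are mutually exclusive large subunits of the canonical BAF complex, a remodeler that uses ATP to slide or evict nucleosomes. The complex is known for keeping enhancers open, whereas many promoters of widely used genes stay accessible without it. Chromosome 7 carries the HOXA cluster of developmental regulators and the receptor kinase genes EGFR on the short (p) arm and MET on the long (q) arm. Where a gene is named below for a stretch of the chromosome, the placement is general knowledge of the hg19 map and was not computed here, since the annotation at hand belongs to another build.

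The 1998 regions were 173 to 5620 bp wide with a median of 944 bp. The arms were divided at 60 Mb, inside the longest stretch without a peak in any whole list, chr7:57486068-62475680, which is 4.99 Mb long and spans the centromere. The p arm held 768 regions in 60 windows of 1 Mb and the q arm 1230 in 100 windows. Of 160 windows, 13 had no region, and the median window had 9.5. The fullest was the window from 100 to 101 Mb, with 58 regions, 27 of them called in every library. It held 41 to 45 peaks of the equal-length list in the Empty_vector libraries and 43 to 48 in the wild-type libraries, which overlapped.

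A total of 611 regions of chromosome 7, 30.6%, were called in all 28 libraries, and so were 30.1% of the regions of all chromosomes. Their median width was 1524 bp, and they formed 26.8% of p-arm regions and 32.9% of q-arm regions. The best ranked were chr7:44887021-44888616, chr7:100183022-100185042, chr7:44645718-44647041, chr7:108165858-108167186 and chr7:100136070-100137196. The first had a mean rank of 11.1 among the peaks of a list and a fold enrichment, the authors' ratio over background, from 6.32 to 9.80. Wild-type values of that region (6.48 to 7.68) lay inside the Empty_vector range (6.32 to 9.80). The widest region called everywhere was chr7:144530671-144535557, 4887 bp long, with a low fold of 2.78 to 4.05.

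The wild-type libraries placed a larger share of their strongest peaks on chromosome 7 than the Empty_vector libraries did. The share of the equal-length list was 5.78, 5.65, 5.99 and 5.71% in Empty_vector 1 to 4. It was 6.28 and 6.18% in ARID1A_WT and 6.58 and 6.59% in ARID1B_WT, so that all 4 wild-type libraries lay above all 4 Empty_vector libraries. The means were 6.41% ± 0.211 (SD, n = 4) and 5.78% ± 0.149 (SD, n = 4), a difference of 0.624 percentage points. An exact permutation test, two-sided, gave p = 0.0286, the smallest that 70 splits allow, and 0.0571 after adjustment over the shares of the chromosome and of its p arm. Among 23 chromosomes, 5 (21.7%) were higher in every wild-type library than in every Empty_vector library, and 7 (30.4%) were lower in every one. By ratio of means chromosome 7, at 1.11, came after chromosome 5 (1.19) and chromosome 10 (1.13). The difference was 0.499 points within run A, 0.525 within run B and 0.736 within run C.

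In the whole lists this order was lost. Chromosome 7 made up 6.02% ± 0.224 of the whole Empty_vector lists (SD, n = 4) and 5.92% ± 0.0834 of the whole wild-type lists (SD, n = 4), a difference of -0.0970 points (exact permutation p = 0.457). The whole lists held 1464 to 3098 chromosome 7 peaks in Empty_vector and 3523 to 4600 in wild type. List length can move with sequencing depth, and the depth is unknown because the lists hold no read counts.

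**Figure D1:**
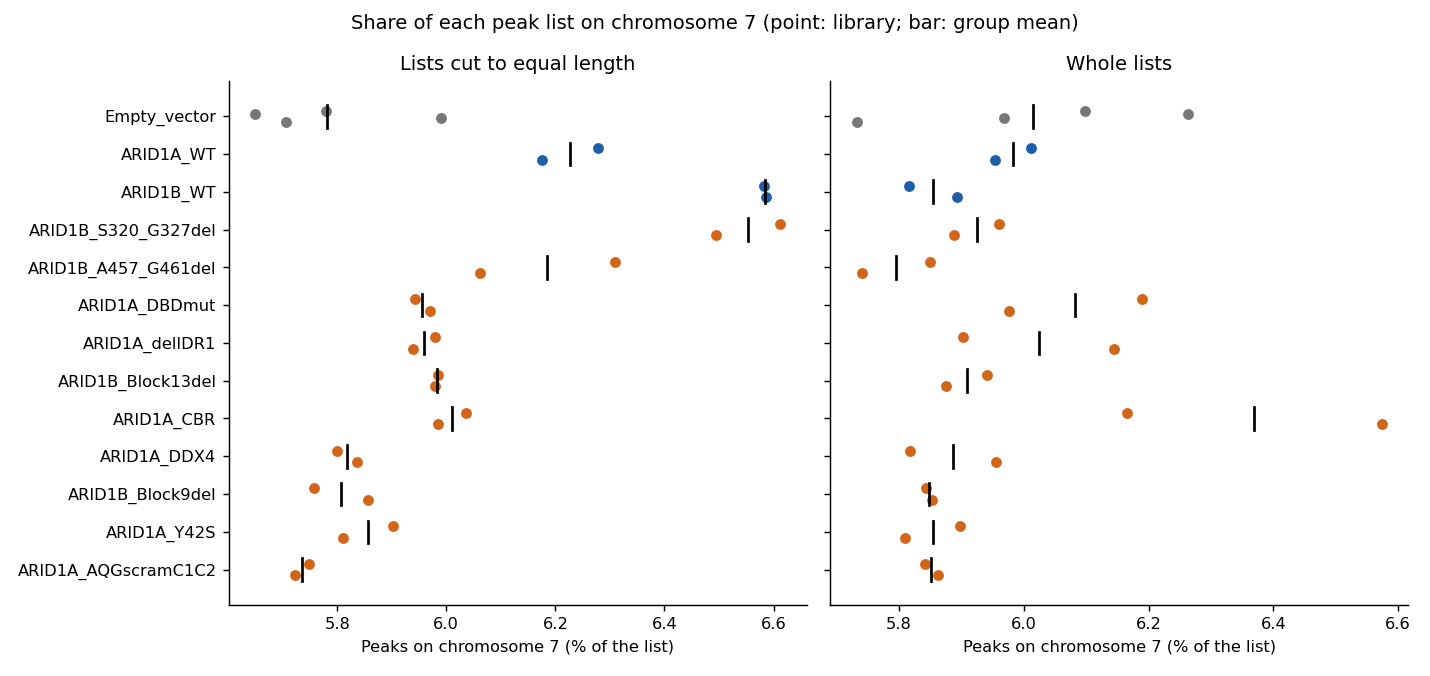
Percent of each peak list that lies on chromosome 7, by group, for lists cut to equal length (left) and for whole lists (right). Points are libraries and bars are group means. In the left panel the 4 wild-type libraries (6.18 to 6.59%) lie above the 4 Empty_vector libraries (5.65 to 5.99%), and in the right panel they overlap.

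Among the altered constructs, ARID1B_S320_G327del had the highest equal-length share, 6.61 and 6.49%, beside ARID1B_WT. ARID1B_A457_G461del followed with 6.31 and 6.06%. ARID1A_CBR had 6.04 and 5.98%, ARID1A_delIDR1 5.98 and 5.94% and ARID1A_DBDmut 5.94 and 5.97%. Each library of these 3 constructs, from runs A and B, lay above the Empty_vector library of its own run (5.78 and 5.65%), and all but ARID1A_CBR 1 lay below Empty_vector 3 of run C (5.99%). ARID1B_Block13del (5.98 and 5.98%) comes from run E, which has no Empty_vector library. ARID1A_Y42S, ARID1A_DDX4, ARID1B_Block9del and ARID1A_AQGscramC1C2 ran from 5.72 to 5.90%, inside the Empty_vector range. In the whole lists ARID1A_CBR 2 stood out with 6.57%, the highest of the 28 libraries.

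The p arm took 36.5% ± 0.216 of the chromosome 7 peaks of the equal-length lists in wild type (SD, n = 4) and 35.7% ± 0.482 in Empty_vector (SD, n = 4). The difference of 0.763 points did not pass an exact permutation test (two-sided p = 0.0571). It was 1.03 points within run A, 0.739 within run B and 0.639 within run C. Empty_vector 3, at 36.4%, fell within the wild-type range of 36.2 to 36.7%. Without it the difference was 1.0 points and the exact permutation p 0.0286, the smallest that the remaining libraries allow. Leaving out the 1 overlapping library separates the groups, so that p follows from the choice and is no further test. The whole lists gave the opposite sign, 38.9% in wild type against 39.6% in Empty_vector (exact permutation p = 0.0286).

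Regions called in all 4 wild-type libraries and in no Empty_vector library are named gained, and the reverse lost. The calls chose these regions, so their counts carry no test. Chromosome 7 held 177 gained regions, 8.86% of its regions, where 5.78% of the regions of all chromosomes were gained. That share was second to chromosome 5 (10.2%) and above chromosome 10 (8.18%). With whole lists the order turned, at 17.4% on chromosome 7 and 18.2% over all chromosomes, and with peaks ranked by fold enrichment the shares were 5.29 and 4.76%. Lost regions numbered 39, or 1.95%, against 2.27% over all chromosomes. The p arm had 73 gained (9.51%) and 15 lost regions, and the q arm 104 gained (8.46%) and 24 lost. In ARID1A_WT against the Empty_vector libraries of its own runs 243 regions were gained (12.2%, and 9.19% over all chromosomes) and 115 lost (5.76 and 6.91%). In ARID1B_WT 348 were gained (17.4 and 12.6%) and 161 lost (8.06 and 9.42%).

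Presence in a whole list can differ with its length, and the whole Empty_vector lists are shorter than the whole wild-type lists (1464 to 3098 against 3523 to 4600 chromosome 7 peaks), so the next counts for gained and lost regions are not comparable. Of the 177 gained regions, 120 (67.8%) were in no whole Empty_vector list, compared with 72.5% of the gained regions elsewhere. Of the 39 lost regions, 31 were still in all 4 whole wild-type lists and only 1 was in none of them. Gained regions had a median width of 963 bp and lost regions of 769 bp. The strongest gained region, chr7:101170903-101171848 on the q arm, had no peak in any whole Empty_vector list. Its fold was 6.30 and 6.55 in ARID1A_WT, 6.86 and 8.61 in ARID1B_WT, and its mean wild-type rank was 1312. Both libraries of ARID1B_S320_G327del (7.17 and 7.07), ARID1B_A457_G461del (7.72 and 7.41), ARID1A_DBDmut (6.54 and 6.58), ARID1A_delIDR1 (5.39 and 7.22) and ARID1B_Block13del (6.01 and 6.81) called it in the equal-length lists. In the whole lists it had lower folds in ARID1A_CBR (3.32 and 4.41), ARID1B_Block9del (4.43 and 4.07) and ARID1A_AQGscramC1C2 2 (4.05), and no peak in ARID1A_DDX4 or ARID1A_Y42S.

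The second, chr7:151432959-151434033, had a fold of 6.19 and 6.21 in ARID1A_WT and 8.06 and 7.39 in ARID1B_WT. Whole lists of Empty_vector 1 and 2 held it at 4.78 and 4.09, while Empty_vector 3 and 4 lacked it. The third, chr7:36342624-36344316 on the p arm, was 1693 bp wide with wild-type folds of 4.33 to 4.98 and no peak in a whole Empty_vector list. The same 5 constructs that called the strongest region called it with both libraries. The fourth, chr7:83097490-83098235, was the most widely shared of these 12 regions, called in 22 lists and by both libraries of 8 altered constructs. Its folds were 7.33 to 11.3 in wild type and 6.4 and 4.69 in the whole lists of Empty_vector 1 and 2.

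The next 8 by rank were chr7:1731188-1732197, chr7:105704885-105706558, chr7:47759471-47760612, chr7:43686721-43688343, chr7:101525647-101526699, chr7:105470495-105471656, chr7:92545864-92546764 and chr7:44111834-44113444. Their wild-type folds ran from 3.76 (the region from 105704885) to 8.16 (the region from 92545864). A pair of the 12 lay in the window from 101 Mb, which holds most of CUX1, a homeodomain transcription factor gene. Another pair lay in the window from 105 to 106 Mb, which holds NAMPT, the enzyme gene of the NAD salvage pathway. All 12 were called by both libraries of ARID1B_S320_G327del, ARID1B_A457_G461del and ARID1A_DBDmut.

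Gained regions occurred in 79 of 160 windows. The 8 windows with most held 49 of them, 27.7%, with 13% of all regions of the chromosome. These 8 were chosen by that count, so an excess is built in, and evenness of the spread was not tested. Neighbouring gained regions were a median of 341 kb apart, and 28 of 176 neighbouring pairs lay under 50 kb from each other. The window from 47 to 48 Mb, which holds much of TNS3, a focal adhesion protein gene, had 9 gained regions of 33 and none lost.

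Numbers of peaks per 1 Mb window of the equal-length lists were tested in limma over all windows of the genome with a mean of at least 3 peaks, on log2(peaks + 1), so that fold changes of sparse windows are understated. With the wild-type proteins, 34 of 100 tested windows of chromosome 7 rose, against 22.9% of the 1717 windows of the genome, and 5 fell, against 20.3%. The p arm had 13 windows up and 2 down, the q arm 21 up and 3 down. The median difference over the windows of chromosome 7 was 0.08 (log2). With whole lists 109 of 135 tested windows rose and none fell by limma, as did 80.2% and 0% of the windows of the genome, so the split between rises and falls was that of equal-length lists.

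**Figure D2:**
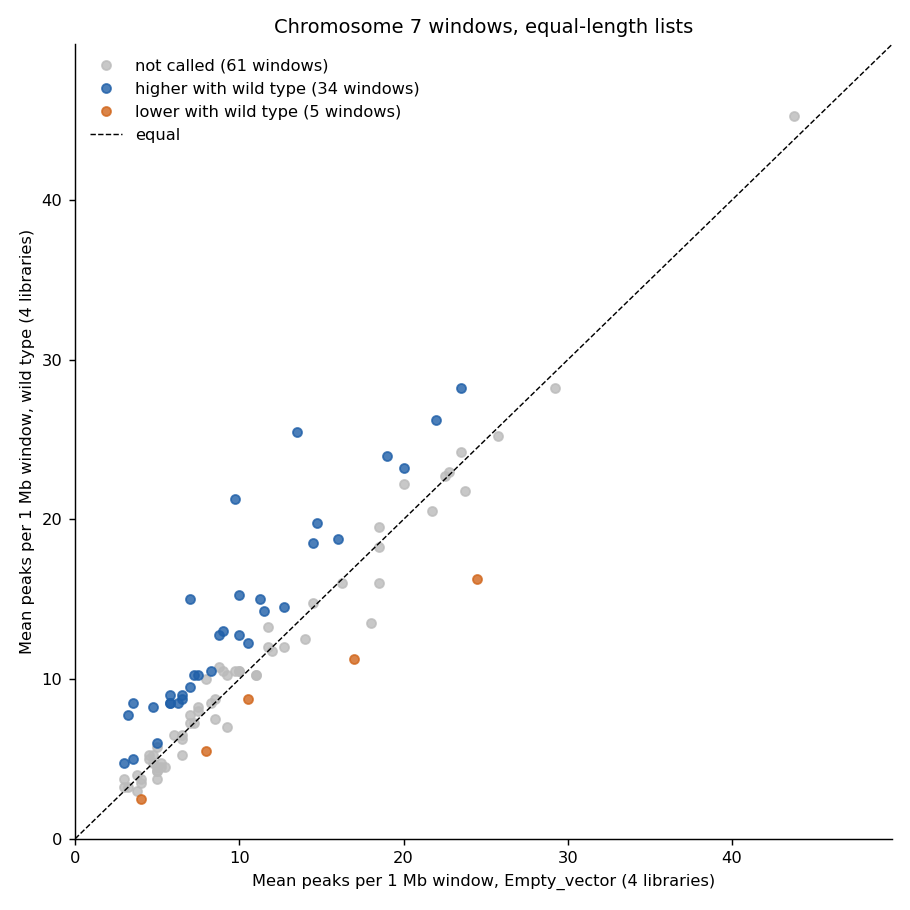
Mean peaks per 1 Mb window of chromosome 7 in the 4 Empty_vector libraries (x) and the 4 wild-type libraries (y), equal-length lists. Each point is a tested window, coloured by the limma call, and the dashed line marks equal numbers. Most of the 34 windows that rose lie well above the line, and the 5 that fell below it.

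The window with the lowest p was that from 105 to 106 Mb, which held 14, 14, 13 and 13 peaks in Empty_vector, 23 and 22 in ARID1A_WT and 29 and 28 in ARID1B_WT. The wild-type groups were higher by 0.86 ± 0.06 (log2, SE; limma adjusted p = 4.26e-09). Of its 38 regions, 7 were gained, 1 was lost and 8 were called in every library. Both wild-type proteins, ARID1B_S320_G327del (28 and 31 peaks) and ARID1B_A457_G461del (24 and 26) rose strongly there. ARID1A_CBR (17 and 17), ARID1A_DBDmut (17 and 16) and ARID1A_delIDR1 (18 and 16) also passed the test at smaller differences, 0.27 to 0.31 (log2), with limma adjusted p from 0.0174 to 0.0404. When 1 library was left out, ARID1A_CBR and ARID1A_DBDmut each passed in 2 of 6 fits and ARID1A_delIDR1 in 5 of 6 (limma adjusted p up to 0.208, 0.311 and 0.258).

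The TNS3 window from 47 to 48 Mb held 9, 10, 11 and 9 peaks in Empty_vector, 23 and 20 in ARID1A_WT and 20 and 22 in ARID1B_WT. The difference was 1.05 ± 0.10 (log2, SE; limma adjusted p = 7.25e-08). The wild-type and Empty_vector libraries did not overlap. The same constructs as in the preceding window passed, with 23 and 23 peaks in ARID1B_S320_G327del and 19 and 22 in ARID1B_A457_G461del, and 13 or 14 in ARID1A_CBR, ARID1A_DBDmut and ARID1A_delIDR1. These last 3 passed in 1, 3 and 4 of 6 limma fits that left out 1 library (adjusted p up to 0.257, 0.168 and 0.148). Where peaks were ranked by fold enrichment instead of p, wild type no longer rose in this window (-0.08, log2; limma adjusted p = 0.791). The windows from 28, 30, 36, 44, 56, 73, 101 and 134 Mb, described next, also missed the threshold under that ranking, and that from 105 Mb passed.

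In the window from 36 to 37 Mb every Empty_vector library had 7 peaks. ARID1A_WT had 12 and 12 and ARID1B_WT 18 and 18 (0.97 ± 0.10, log2, SE; limma adjusted p = 1.47e-07), and ARID1B_A457_G461del had 17 and 16. The window from 28 to 29 Mb, which holds CREB5, a CRE-binding transcription factor gene, went from 3 or 4 peaks to 9, 10, 6 and 9 (1.07 ± 0.17, log2, SE; limma adjusted p = 4.18e-05). ARID1A_DBDmut with 8 and 8 peaks and ARID1A_CBR with 7 and 7 passed there too, in 4 and 2 of 6 fits that left out 1 library, while ARID1A_delIDR1 with 5 and 5 did not pass. The window from 132 to 133 Mb had 3 or 4 peaks in Empty_vector, 6 and 5 in ARID1A_WT and 11 and 9 in ARID1B_WT (0.99 ± 0.12, log2, SE). The windows from 56 Mb (9 peaks in all 4 Empty_vector and 13 in all 4 wild-type libraries), from 127 Mb, which holds SND1, and from 134 Mb, which holds CALD1, a caldesmon gene, rose by 0.49, 0.56 and 0.40 (log2).

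Windows that were named for many gained or lost regions were chosen on the same lists. Of these, the windows from 30, 44, 73 and 101 Mb rose by 0.33, 0.24, 0.25 and 0.32 (log2). The window from 73 Mb holds the elastin gene ELN, and ARID1B_WT alone did not pass there. The window from 75 Mb, with 4 gained and 2 lost regions, did not pass in its number of peaks (-0.03, log2; limma adjusted p = 0.682), with 24 to 27 in Empty_vector and 24 to 26 in wild type.

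In all, 5 windows fell with the wild-type proteins, and those other than the window from 15 Mb were named after their values were seen. The fall of lowest p was in the window from 130 to 131 Mb, from 23 to 27 peaks in Empty_vector to 13 to 19 in wild type (-0.57 ± 0.11, log2, SE; limma adjusted p = 0.000200). The window from 15 to 16 Mb had 12 and 14 peaks in Empty_vector of runs A and B but 22 and 20 in run C, against 11 and 9 in ARID1A_WT and 14 and 11 in ARID1B_WT. It was called lower in ARID1A_WT (-0.68, log2) and higher in ARID1A_Y42S (0.87, log2; limma adjusted p = 0.0437), whose 2 libraries had 24 and 40 peaks there. The library with 40 has the shortest whole list of the series, and the ARID1A_Y42S call held in 3 of 6 limma fits without 1 library (adjusted p up to 0.566). The wild-type call there was lost, among other settings, without ARID1A_WT 2 (limma adjusted p = 0.0504) or ARID1B_WT 2 (0.0532), and in whole lists (0.04, log2; limma adjusted p = 0.834). Of 19 alternatives run for this window, it held in 11, missed the threshold with the same sign in 6 and turned sign in 2. The windows from 25, 90 and 97 Mb fell by 0.47, 0.51 and 0.24 on the log2 scale. In the whole lists, which are longer in wild type, mean peaks in these windows were higher with wild type. They went from 17 in Empty_vector to 31.5 at 25 Mb, from 7.5 to 12 at 90 Mb and from 15.75 to 21.75 at 97 Mb. The window from 130 Mb went from 54 to 70.75. These falls are thus falls among the strongest peaks of a list.

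The HOXA, EGFR and MET windows, outside the naming rule, were added for their genes with their values known. The HOXA window from 27 to 28 Mb varied between runs, with 9 and 8 peaks in Empty_vector 1 and 2 and 17 and 13 in Empty_vector 3 and 4. Wild type had 10 to 14 and did not pass (0.07, log2; limma adjusted p = 0.773). ARID1A_CBR had 5 and 6 peaks there, fewer than any other library, and was called lower (-0.92, log2; limma adjusted p = 0.0316), but with run as a term it missed the threshold (-0.55; limma adjusted p = 0.253), as it did without Empty_vector 3 (0.0699) or Empty_vector 4 (0.0613) or either of its own libraries. Wild type rose there in whole lists (0.76, log2; limma adjusted p = 0.000670), in whole lists with a -log10 q of at least 5 (0.85; limma adjusted p = 0.00119) and with peaks ranked by fold enrichment (0.99; limma adjusted p = 0.00316). The EGFR window from 55 to 56 Mb had 9 or 10 peaks in Empty_vector and 9 to 12 in wild type, and did not pass (limma adjusted p = 0.491), but it passed with lists of 50% of the length (0.42, log2; limma adjusted p = 0.00416), in whole lists (1.18; limma adjusted p = 0.000438), with a -log10 q of at least 5 (1.25; limma adjusted p = 5.38e-05) and with peaks ranked by fold enrichment (0.39; limma adjusted p = 0.0480). The MET window on the q arm went from 4 to 7 peaks to 7 to 10 with wild type (0.50 ± 0.15, log2, SE; limma adjusted p = 0.0104), and missed the threshold without Empty_vector 2 (0.37, log2; limma adjusted p = 0.0507). ARID1B_S320_G327del passed in both of these windows, at 15 and 12 peaks for EGFR and 10 and 9 for MET, in 5 of 6 limma fits without 1 library for each (adjusted p up to 0.176 and 0.0654).

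The altered constructs differed in how many windows of chromosome 7 changed. ARID1B_S320_G327del raised 36 of 100 windows and lowered 14, against 27.2 and 25.0% of windows of the genome. ARID1B_A457_G461del raised 24 and lowered 6 (19.6 and 16.4% of the genome). The wild-type proteins taken singly raised 21 and lowered 5 for ARID1A_WT (15.7 and 10.7% of the genome), and raised 32 and lowered 3 for ARID1B_WT (20.7 and 20.3%). ARID1A_DBDmut raised 7 and lowered none (4.78 and 1.22%, with 5 lower at an unadjusted p under 0.05), ARID1A_delIDR1 raised 6 and lowered 2 (3.96 and 2.50%), and ARID1A_CBR raised 6 and lowered 1 (2.45 and 1.63%). ARID1A_Y42S raised 3 and lowered 1 (0.582% each way), and ARID1A_DDX4 raised 1 and lowered 2 (0.874 and 1.11%). No window passed in limma for ARID1B_Block13del (1.11 and 0.524% of the genome), ARID1B_Block9del (0% both ways) or ARID1A_AQGscramC1C2 (0 and 0.0582%). At an unadjusted p under 0.05 these 3 had 11, 4 and 2 windows higher and 2, 5 and 6 lower. All these comparisons share the 4 Empty_vector libraries. Leaving out 1 library in turn, ARID1A_CBR raised 0 to 2 windows, ARID1A_DBDmut and ARID1A_delIDR1 0 to 6, and ARID1A_Y42S 0 to 7. Without ARID1A_WT 1 the count for ARID1A_WT was 8, without ARID1A_WT 2 it was 14, and without ARID1B_A457_G461del 1 the count for that construct was 12. Without ARID1A_WT 2 or ARID1B_WT 2, 2 and 3 windows were lower with the wild-type proteins together.

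The counts per construct moved with the processing. In whole lists 87 of 135 windows rose with ARID1B_S320_G327del (73.0% over the genome), 58 with ARID1A_CBR (32.9%) and 36 with ARID1A_DBDmut (33.4%), and 44 fell with ARID1A_DDX4 (33.4%), by limma. At a -log10 q of at least 5, 69 of 129 fell with ARID1A_DDX4 (51.7%). By covered kilobases 58 of 95 fell with ARID1A_DDX4 (62.1%) and 49 with ARID1A_Y42S (54.7%), and 6 rose with ARID1B_A457_G461del (5.25%). With peaks ranked by fold enrichment ARID1B_S320_G327del raised 18 of 115 windows (14.7%) and ARID1B_A457_G461del 5 (6.56%). ARID1A_CBR, ARID1A_DBDmut and ARID1A_delIDR1 then raised none by limma, with 2, 7 and 7 higher at an unadjusted p under 0.05.

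**Figure D3:**
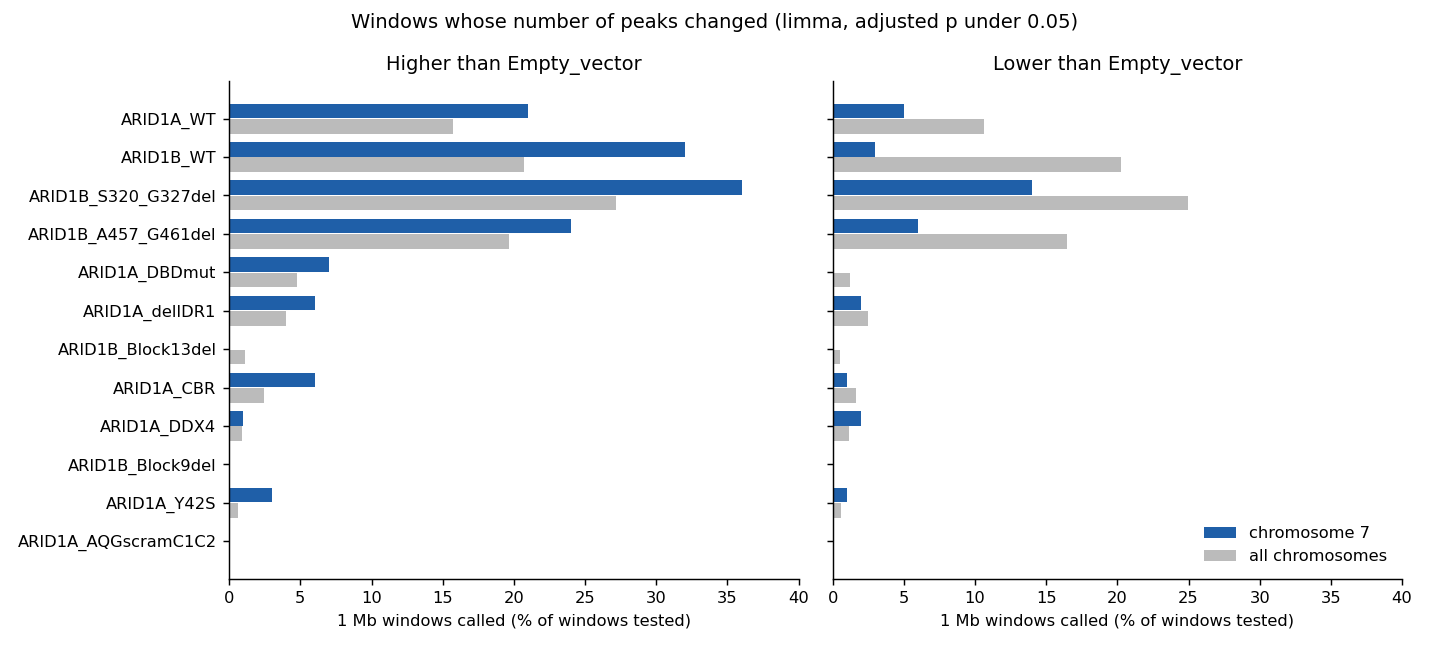
Percent of tested 1 Mb windows with more (left) or fewer (right) peaks than Empty_vector, for each construct, on chromosome 7 and over all chromosomes (limma, adjusted p under 0.05). Bars on chromosome 7 reach 36% higher with ARID1B_S320_G327del, and those for fewer peaks on chromosome 7 stay at or below 14%.

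Recovery, the percent of the gained regions that a library calls, was measured in the altered constructs, none of which chose the regions. The 177 gained regions of chromosome 7 were called to 93.2% ± 0.799 by ARID1B_S320_G327del and to 77.1% ± 1.20 by ARID1B_A457_G461del (SD, n = 2 for each construct here and below). ARID1A_DBDmut called 50.6% ± 2.8, ARID1A_delIDR1 40.4% ± 0.399, ARID1B_Block13del 30.2% ± 2.0 and ARID1A_CBR 18.1% ± 0.799. ARID1A_DDX4 called 7.91% in each library, ARID1B_Block9del 4.80% ± 0.399, ARID1A_Y42S 3.39% ± 1.60 and ARID1A_AQGscramC1C2 3.11% ± 0.399. For reference, wild-type libraries scored on the set made without them called 91.7% ± 3.36 (SD, n = 4) and Empty_vector libraries, treated likewise, 0.698% ± 0.698 (SD, n = 4). ARID1B_S320_G327del thus lay within the wild-type spread. Of the lowest 3 constructs, the libraries of ARID1A_Y42S (2.26 and 4.52%) overlapped those of ARID1B_Block9del (5.08 and 4.52%) and of ARID1A_AQGscramC1C2 (3.39 and 2.82%), which did not overlap each other.

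Recovery on chromosome 7 did not differ from that on the other chromosomes beyond the test's threshold. Over the 10 altered constructs the mean difference was -0.796 points (SD 2.77), positive in 4 and negative in 6, from -5.23 in ARID1B_A457_G461del to 4.01 in ARID1A_DBDmut. An exact sign-flip permutation test over constructs, two-sided, gave p = 0.367. With whole lists the mean difference was 1.3 points (exact permutation p = 0.00977), and with whole lists at a -log10 q of at least 5 it was 0.711 points (exact permutation p = 0.00781), so it passed under both and with the other sign. The constructs share the same regions, so none of these p-values covers the spread between regions.

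**Figure D4:**
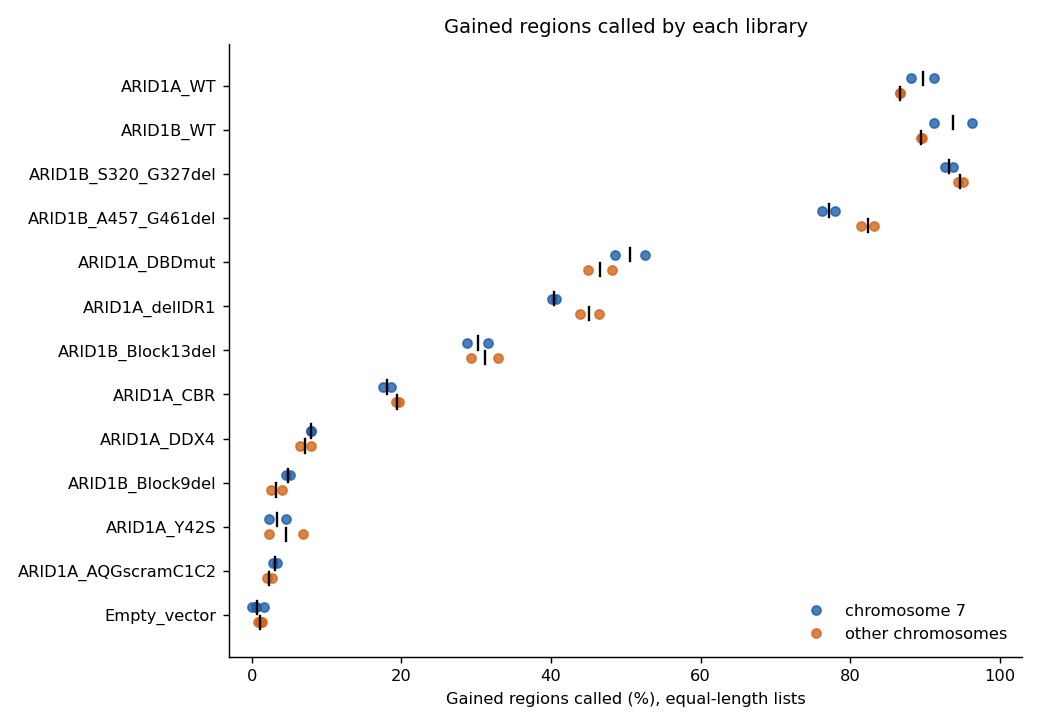
Percent of gained regions called by each library, on chromosome 7 and on the other chromosomes, by construct. Points are libraries and bars are means, and wild-type and Empty_vector libraries are scored on sets made without them. The order of the constructs runs from 93.2% for ARID1B_S320_G327del to 3.11% for ARID1A_AQGscramC1C2 on chromosome 7.

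Within chromosome 7 the altered constructs recovered fewer of the gained regions of the p arm than of the q arm. The mean difference was -5.02 points (SD 4.03), and it was negative in 9 of 10 constructs (p = 0.00391 by an exact sign-flip permutation test, two-sided, and 0.00781 after adjustment over the 2 differences tested). ARID1B_Block13del differed most, with 23.3% on the p arm and 35.1% on the q arm. ARID1B_A457_G461del called 71.9 and 80.8%, ARID1B_S320_G327del 88.4 and 96.6%, and ARID1A_CBR 13.7 and 21.2%. ARID1A_DBDmut was the exception with 50.7 and 50.5%. Left-out wild-type libraries went the other way, at 93.7% on the p arm and 90.3% on the q arm.

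All altered constructs were scored on the same 73 and 104 regions, so this p does not cover the spread between regions. Gained regions of the p arm ranked lower in the wild-type lists, at a median of the mean rank of 11082, than those of the q arm, at 9880. In the 50% of gained regions with the better ranks the difference was -0.318 points (exact permutation p = 0.877), and in the rest it was -5.56 (exact permutation p = 0.0234). With lists of 50% of the length the sign turned (0.317 points, exact permutation p = 0.887), and with whole lists too (1.46 points, exact permutation p = 0.0684). Where peaks had to cover 50% of a region it was -2.64 points (exact permutation p = 0.154), and without ARID1A_WT 2 it was -2.90 points (exact permutation p = 0.0195).

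**Figure D5:**
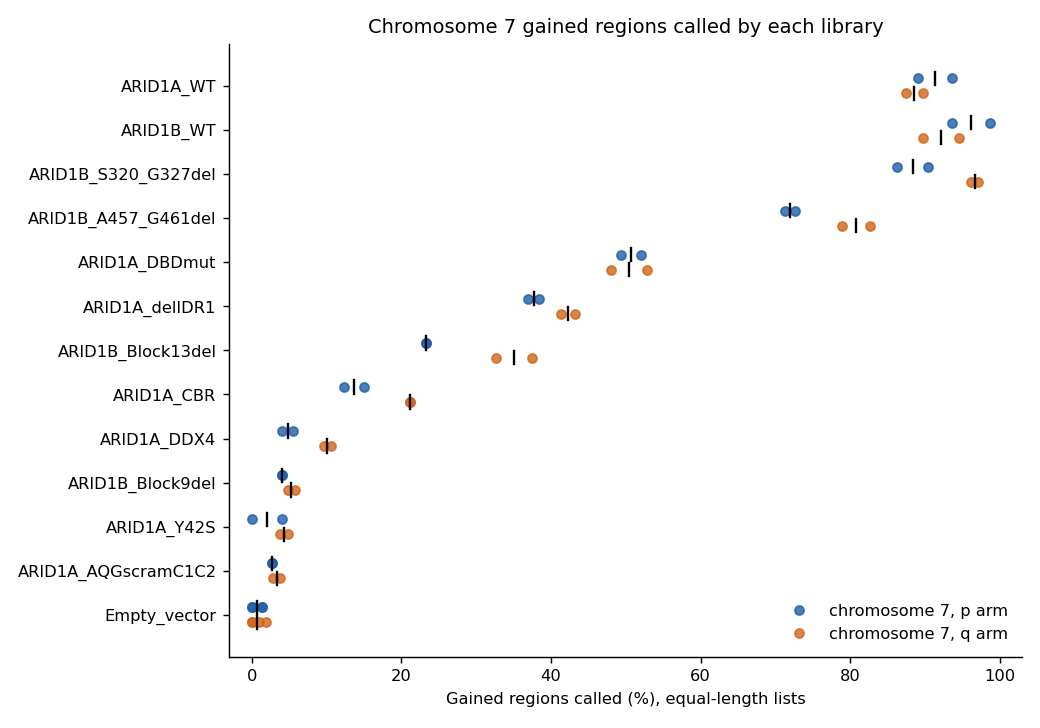
Percent of the chromosome 7 gained regions called by each library, by arm. Altered constructs are scored on 73 regions of the p arm and 104 of the q arm. Wild-type and Empty_vector libraries are scored on sets made without them. Points are libraries and bars are means. In 9 of the 10 altered constructs the p-arm mean is below the q-arm mean, and in both wild-type groups it is above.

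The constructs called the strongest gained regions more often than the weakest. Of the 45 gained regions with the best wild-type ranks, ARID1B_S320_G327del called 100%, ARID1A_DBDmut 80%, ARID1A_delIDR1 67.8%, ARID1B_Block13del 63.3% and ARID1A_CBR 33.3%. Of the 44 with the poorest ranks the same constructs called 77.3, 38.6, 26.1, 7.95 and 11.4%. ARID1B_Block13del therefore fell by the largest factor of these 5. Single regions differed in how many altered constructs called them with both libraries: 9 of 177 were called so by none, 28 by 1, 57 by 2, 27 by 3 and 21 by 4, and none by all 10. Neither these counts nor the percents by rank have a share over all chromosomes beside them. Averaged over the altered libraries, 32.9% of gained regions were called on chromosome 7 and 33.7% on the other chromosomes.

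Whole lists differ in length, from a mean of 1315 chromosome 7 peaks in ARID1A_DDX4 to 3558 in ARID1A_CBR among the 8 constructs given here. At full length ARID1A_DBDmut and ARID1A_delIDR1 each held 94.9% of the 177 regions (SD 0.799 and 1.60), ARID1B_Block13del 80.5% and ARID1A_CBR 73.7% (SD 9.99). ARID1B_Block9del held 43.8% and ARID1A_AQGscramC1C2 24.3%, while ARID1A_Y42S and ARID1A_DDX4 held 14.1% each. Of the same 177 regions, the whole lists of Empty_vector 1 to 4 held 43, 54, 5 and 9. Of all 1998 regions of chromosome 7, whole lists held 1890 and 1802 in ARID1A_DBDmut and 1737 and 1840 in ARID1A_delIDR1. They held 1618 and 1552 in ARID1B_Block13del and 1637 and 1759 in ARID1A_CBR. Counts were 1430 and 1439 in ARID1B_Block9del, 1380 and 1491 in ARID1A_AQGscramC1C2, 1370 and 1051 in ARID1A_Y42S and 1128 and 1229 in ARID1A_DDX4. Empty_vector 1 to 4 held 1502, 1526, 1268 and 1326.

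In the equal-length lists, lost regions of chromosome 7 were called least by the constructs that recovered most gained regions. These lists hold a fixed number of peaks, so peaks at gained regions leave fewer places for peaks of poorer rank. Lost regions had a median Empty_vector rank of 15900, against 10607.5 over all regions of chromosome 7. An inverse order can therefore be built in by the cut, and how far it was built in was not tested. Of 39, ARID1B_S320_G327del called 10.3%, ARID1B_A457_G461del 23.1% and ARID1A_DBDmut 42.3%, and the other 7 constructs from 56.4% (ARID1A_delIDR1) to 76.9% (ARID1A_AQGscramC1C2). On the other chromosomes the same 3 called 6.19, 20.7 and 55.1%, and the other 7 from 52.3% (ARID1A_delIDR1) to 81.7% (ARID1A_AQGscramC1C2). There ARID1A_DBDmut did not lie below ARID1A_delIDR1. Whole lists, which differ in length, did not keep the order on chromosome 7. The same 3 held 85.9, 89.7 and 98.7% of the 39, and the other 7 from 70.5% (ARID1A_DDX4) to 100% (ARID1A_CBR and ARID1A_AQGscramC1C2). The best ranked lost region, chr7:105292688-105293273, lies in the window of lowest p and is the 1 lost region that no whole wild-type list held. Its fold in Empty_vector was 5.78, 4.56, 7.73 and 6.52. It had no peak in either library of ARID1B_S320_G327del, ARID1B_A457_G461del or ARID1B_Block13del, and folds of 3.73 to 5.99 in the 12 altered libraries that called it. The second, chr7:123903142-123904198, had similar folds in Empty_vector (6.05 to 7.87) and in the whole wild-type lists (5.46 to 6.59). The next were chr7:93918215-93918793, chr7:101181827-101182532, chr7:151629521-151630641 and chr7:95111060-95112451, all held by all 4 whole wild-type lists. The fourth lies a short way past the strongest gained region on the q arm.

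Taken against Empty_vector alone, regions called by both libraries of a construct and by no Empty_vector library numbered 379 on chromosome 7 with ARID1B_S320_G327del (15.5% of regions on all chromosomes were of this kind), 341 with ARID1B_WT (12.1%), 238 with ARID1B_A457_G461del (9.58%) and 231 with ARID1A_WT (8.72%). ARID1A_DBDmut had 105 (3.65%), ARID1A_delIDR1 81 (3.83%), ARID1A_CBR 63 (2.74%) and ARID1B_Block13del 56 (1.83%). ARID1A_DDX4 had 25 (1.29%), ARID1B_Block9del 24 (0.682%), ARID1A_Y42S 18 (0.634%) and ARID1A_AQGscramC1C2 13 (0.522%). In whole lists the order was another, but these lists differ in length, from a mean of 1315 chromosome 7 peaks in ARID1A_DDX4 to 4146.5 in ARID1A_WT. The whole-list counts that follow have no share over all chromosomes beside them. ARID1B_S320_G327del then had 446 of the 1998 regions, ARID1B_WT 437, ARID1A_WT 432 and ARID1B_A457_G461del 419. ARID1A_DBDmut had 313, ARID1A_delIDR1 240, ARID1B_Block13del 181 and ARID1A_CBR 128, and the other 4 had 42 (ARID1B_Block9del), 6 (ARID1A_DDX4 and ARID1A_AQGscramC1C2) and 2 (ARID1A_Y42S).

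Some regions were called by both libraries of an altered construct and by no wild-type or Empty_vector library. There were 45 with ARID1B_S320_G327del (2.24% of regions on all chromosomes were of this kind), 23 with ARID1A_CBR (1.03%), 17 with ARID1B_Block9del (0.482%), 13 with ARID1B_A457_G461del (0.691%) and 12 each with ARID1B_Block13del (0.343%) and ARID1A_DDX4 (0.755%). ARID1A_Y42S had 11 (0.440%), ARID1A_delIDR1 7 (0.446%), ARID1A_AQGscramC1C2 6 (0.321%) and ARID1A_DBDmut 2 (0.146%). Of the 45, 32 were called by both libraries of no other altered construct. The best ranked, chr7:27386433-27386949, had folds of 7.62 and 9.01 with ARID1B_S320_G327del and lay in the HOXA window. All 4 whole wild-type lists held it and no whole Empty_vector list did. ARID1A_CBR and ARID1A_delIDR1 had the same best region, chr7:81113462-81114082, with folds of 6.14 and 6.74 in ARID1A_CBR and 6.29 and 6.35 in ARID1A_delIDR1. It too was in all whole wild-type lists and in no whole Empty_vector list. The best region of ARID1A_DDX4 and ARID1A_AQGscramC1C2, chr7:25894308-25894927, was held by all 28 whole lists, with folds of 2.47 to 3.20 in Empty_vector. So was that of ARID1B_Block9del, chr7:12746480-12746994. Those of ARID1B_A457_G461del (chr7:135401329-135401987) and ARID1A_DBDmut (chr7:14333446-14334626) were in all whole wild-type lists and in no whole Empty_vector list. Those of ARID1B_Block13del (chr7:128911628-128912173) and ARID1A_Y42S (chr7:95147653-95148448) were in 3 and 2 whole Empty_vector lists.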

How the data were processed

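ATAC-seq libraries of AN3CA cells were grouped by their titles into 13 groups. The series' design text describes CUT&Tag, while the titles say ATAC-seq. Per the submitters' processing notes, MACS2, Picard 2.8.0, SAMtools 0.1.19, Bowtie2 and bcl2fastq were used with hg19, after 7 cycles of PCR per the labels' protocols. The sources used here do not give the peak calling options, a control or a read shift for the transposase. The deposited broadPeak lists, 1 per library, give each peak's score, its fold enrichment (a ratio over background), and its -log10 p and -log10 q values, as the authors' caller wrote them. The score column was not used. The lists hold no read counts, so depth is unknown.

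Members, windows and tests were chosen with earlier results of these data known. Peaks on the autosomes and X were ranked by -log10 p and each list was cut to the length of the shortest. Overlap meant at least 1 bp. Windows with a mean of at least 3 peaks per library were tested with limma 3.58.1 in R 4.3.3 on log2(peaks + 1), all 28 libraries in 1 fit with a mean-variance trend, and Benjamini-Hochberg adjustment over all 1717 windows at a threshold of 0.05. Shares were tested by exact permutation over libraries and recovery by exact sign flips over constructs, in Python 3.11.15 with SciPy 1.17.1. The window fit was tested on simulated data. The regions named were the 12 gained, 6 lost and 5 always called of best mean rank, the widest always called, and the best of each construct. The windows named were the 8 with most gained regions, the 4 with most lost, the 8 of lowest p and the fullest. Alternatives were whole lists, lists of 50% of the length, a -log10 q of at least 5, ranking by fold enrichment, 50% coverage of a region, other window sizes, scales and filters, run or replicate terms, and each library left out in turn. No region sequence or gene overlap was computed, since the annotation at hand is of another build.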

Additional observations from a re-analysis of the deposited data

Results flagged for a closer look

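Of 21 groups of 4 libraries examined for a single library far from the rest, 3 had one by Dixon's 95% criterion. Chance alone meets it in about 1 group of 20 for continuous values. Where the other libraries tie, as in the windows given below, any gap meets it and that rate does not hold. Empty_vector 3 placed 36.4% of its chromosome 7 peaks on the p arm, while the other Empty_vector libraries had 35.4 to 35.5%. Empty_vector 2 had 22 peaks in the window from 73 to 74 Mb, while the others each had 24. Empty_vector 2 also had 4 peaks in the window from 132 to 133 Mb, while the others each had 3, a gap of 1 peak.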

How the results depend on the processing

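With whole lists the chromosome 7 share differed by -0.0970 points (exact permutation p = 0.457), the p-arm share by -0.758 (p = 0.0286), 1014 regions were gained (17.4%, against 18.2% over all chromosomes) and 7 lost, 109 windows rose and 0 fell with wild type, and over the 10 altered constructs 219 rose and 44 fell (main sums 83 and 26). Recovery then differed by 1.3 points from the other chromosomes (exact p = 0.00977) and by 1.46 between arms. With a -log10 q of at least 5 these values were 0.111, -0.463, 865 and 10, 99 and 0, 146 and 69, 0.711 (exact p = 0.00781) and 1.28. With lists of 50% of the length 43 regions were gained and 7 lost, 20 windows rose and 3 fell, the sums were 50 and 4, and the arms differed by 0.317 points. With peaks ranked by fold the share difference was 0.275 points (exact permutation p = 0.114), 19 windows rose and 3 fell, and the sums were 23 and 12. Where 50% of a region had to be covered, 12 regions were lost and the arms differed by -2.64 points (exact p = 0.154). Against Empty_vector of its own runs, ARID1A_WT lost 115 regions, and ARID1B_WT gained 348 and lost 161. As shares of covered bases the p arm differed by 1.39 points (exact permutation p = 0.0286), and by covered kilobases the sums were 38 and 130. Windows of 500 kb gave 10 lower with wild type and a sum of 41 lower, those of 2 Mb a sum of 16, and no filter 12 lower. In the 50% of gained regions of better rank, chosen after seeing the data, the arms differed by -0.318 points. The cause of these changes was not tested.

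Of single windows, that from 0 Mb reversed to 0.65 (whole lists) and 0.74 (-log10 q), 15 Mb to 0.0357 (whole) and 0.12 (50% of the length), and 75 Mb to 0.81, 0.15 and 0.79 (whole, 50%, -log10 q), all log2. Ranked by fold, the windows from 44, 47, 56, 73 and 101 Mb gave -0.0521, -0.0758, -0.29, -0.36 and -0.0467. ARID1A_CBR in the HOXA window gave 0.31, 0.17 and 0.0249 with whole lists, -log10 q and fold ranking.

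Leaving out 1 library at a time, 177 to 201 regions were gained and 42 to 55 lost. A wild-type or Empty_vector library left out drops a condition of both definitions, so these 2 counts tend to rise by construction. The p-arm share differed by 0.670 to 1.0 points, 27 to 33 windows rose and 2 to 7 fell with wild type, and the sums were 67 to 87 and 20 to 31. The arms then differed by -5.50 to -2.90 points. Samples of the same replicate number did not deviate together (2 of 78 group pairs with r over 0.1). With the number as a replicate block the share difference of 0.624 points had an exact permutation p of 0.111. That is the smallest p that permuting within the number allows, so this test could not pass. With that block 25 windows rose and 4 fell, and the sums were 77 and 20. The 500 kb and 2 Mb windows were not run for single named windows, nor the run term for the sums.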
